A study of Mus musculus with 12 samples.

Results

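Nodal, a ligand of the TGF-beta family that is made by pluripotent cells, and the proteins that receive, transmit and restrain its signal were followed at the RNA level in mouse embryonic stem cells (ESCs). The genes described are *Nodal*, *Tdgf1*, *Lefty1*, *Lefty2*, *Smad2*, *Smad3*, *Smad7*, *Skil*, *Tgif1* and *Tgif2*, taken by symbol as 10 of the 50978 genes in the deposited table. All 10 passed the filter on low values and were tested. RNA of 3 E14 ESC lines grown in 15% serum with LIF was sequenced, with 2 polyadenylated libraries per line. The lines are parental ESCs, ESC + H/F-PRAMEL7WT, which carries the full-length HA/FLAG-tagged PRAMEL7, and ESC + H/F-PRAMEL7ΔN, which carries a tagged form without the N-terminal Cul2 and BC boxes, for which the labels give a deletion of 50 amino acids. The written account of the construct gives a shorter deletion, and the length was not settled from these data. Both sequences had been placed at the *Rosa26* locus with Cas9 under the ubiquitous CAG promoter and selected with puromycin, and each derived line is a clone grown from a single cell. The labels describe the 2 libraries of a line as separate dishes, so that the p-values below measure the spread between dishes of the same line and not between independently derived clones. The comparisons ask how RNA levels change with PRAMEL7 in ESCs and whether the change needs the boxes that bind the CUL2 ubiquitin ligase.

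As background, Nodal and activins bind type I and type II activin receptors, and Nodal also needs the co-receptor CRIPTO, the product of *Tdgf1*. The receptors phosphorylate SMAD2 and SMAD3, which join SMAD4 and enter the nucleus, where FOXH1 and other factors guide them to their targets. *Nodal*, *Lefty1*, *Lefty2*, *Smad7* and *Skil* are themselves known targets, and all of them except *Nodal* encode inhibitors, which makes the pathway one of feedback. In serum-grown mouse ESCs the pathway is active, and RNA of *Lefty1* and *Lefty2* is widely used as a readout of it.

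RNA levels are given as CPM, the reads on a gene scaled to a common library total, which were recovered from the deposited RPKM values. Fold changes are differences of log2(CPM + 1), tested with limma over 12914 genes with the 3 lines in a single fit, and a gene was called when its adjusted p was under 0.05. The libraries held 18168585 to 19776956 reads on genes, and the 2 libraries of a line correlated with r between 0.9903 and 0.9966 across genes. The transgene was read as *Pramel7*, which had 0.258 and 0.217 CPM in parental ESCs, 51.2 and 46.2 CPM in ESC + H/F-PRAMEL7WT and 398 and 431 CPM in ESC + H/F-PRAMEL7ΔN. *Pramel7* RNA was therefore 8.5-fold higher in ESC + H/F-PRAMEL7ΔN than in ESC + H/F-PRAMEL7WT, and in the direct comparison of these lines the truncation, the amount of transgene RNA and the clone cannot be told apart. All 8 ESC markers, among them *Pou5f1*, *Sox2* and *Nanog*, summed to 4281 to 4557 CPM in parental ESCs, 4182 to 4308 CPM in ESC + H/F-PRAMEL7WT and 4675 to 4695 CPM in ESC + H/F-PRAMEL7ΔN. Single ESC markers moved within these sums. In ESC + H/F-PRAMEL7WT relative to parental ESCs, *Nanog* (log2 fold change -0.36, limma adjusted p = 0.0178) and *Zfp42* (-0.39, limma adjusted p = 0.0184) fell. *Nanog* lies on chromosome 6, whose 603 tested genes had a median log2 fold change of -0.257 in that comparison. *Utf1* rose in ESC + H/F-PRAMEL7WT (0.73, limma adjusted p = 0.0155), and the other ESC markers were not called. In ESC + H/F-PRAMEL7ΔN only *Dppa4* was called, as higher (0.32, limma adjusted p = 0.0287). *Dcn* and *Lum*, 2 of 7 fibroblast markers, were at 0 in all 6 libraries. The 7 fibroblast markers, 3 of them tested, summed to 43.6 to 56.8 CPM in parental ESCs, 22.1 to 23.3 CPM in ESC + H/F-PRAMEL7WT and 38.9 to 43.8 CPM in ESC + H/F-PRAMEL7ΔN, most of it *Thy1*. Relative to parental ESCs, *Thy1* (log2 fold change -1.08, limma adjusted p = 0.00147) and *Col1a1* (-1.02, limma adjusted p = 0.0109) fell in ESC + H/F-PRAMEL7WT. *Acta2* fell in ESC + H/F-PRAMEL7ΔN (-1.14, limma adjusted p = 0.00374). *Col1a1* and *Acta2* did not exceed 2.66 and 1.79 CPM in any library. Trophectoderm markers, 3 of 6 tested, summed to 79.3 to 117 CPM in parental ESCs, 87.6 to 90.6 CPM in ESC + H/F-PRAMEL7WT and 67.2 to 70.7 CPM in ESC + H/F-PRAMEL7ΔN. This sum hides opposite moves in ESC + H/F-PRAMEL7ΔN relative to parental ESCs. There *Tfap2c* fell (log2 fold change -1.26, limma adjusted p = 0.00143), while *Krt8* (0.79, limma adjusted p = 0.00439) and *Eomes* (0.96, limma adjusted p = 0.00513) rose. Primitive endoderm markers, 4 of 7 tested, summed to 6.95 to 9.44, 11 to 12 and 9.24 to 10.1 CPM. Among them *Gata4* was called higher and *Pdgfra* lower in both derived lines, and *Sox7* higher in ESC + H/F-PRAMEL7WT. The part of other cell types in the results below was not tested.

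Promoters were examined because several of the 10 genes moved in the same comparison. RefSeq promoters (GRCm38.p6) matched *Nodal*, *Smad3*, *Tdgf1*, *Tgif1* and *Tgif2*, which is 5 of the 10 genes, and gave 9 promoters because *Tgif1* has several starts. The sequences of *Smad3* and *Tdgf1*, both on chromosome 9, are printed as examples. They were chosen after the genes were seen to move in opposite directions in ESC + H/F-PRAMEL7WT. Whether CpG content goes with the direction of change was not tested. Each runs 5′ to 3′ on the gene's own strand over the 250 bases before the start, in lower case with every CG in capitals. The *Smad3* promoter is chr9:63757995-63758244 on the minus strand, and the *Tdgf1* promoter is chr9:110946159-110946408 on the minus strand.
Smad3: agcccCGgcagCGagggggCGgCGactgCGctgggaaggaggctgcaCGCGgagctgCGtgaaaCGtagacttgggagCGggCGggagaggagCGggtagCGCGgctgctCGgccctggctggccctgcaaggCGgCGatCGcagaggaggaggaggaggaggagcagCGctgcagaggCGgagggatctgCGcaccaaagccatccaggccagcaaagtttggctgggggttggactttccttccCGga
Tdgf1: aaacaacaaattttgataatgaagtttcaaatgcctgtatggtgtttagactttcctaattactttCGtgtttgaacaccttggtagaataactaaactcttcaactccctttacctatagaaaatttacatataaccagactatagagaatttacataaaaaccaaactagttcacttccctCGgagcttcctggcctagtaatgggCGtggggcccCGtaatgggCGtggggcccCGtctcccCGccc
The *Smad3* promoter held 22 CG dinucleotides with a GC content of 69.2%, and that of *Tdgf1* held 7 with a GC content of 42%. *Tgif2*, which was not called in any comparison, also had 22, *Nodal* had 3 and the *Tgif1* promoters had from 2 to 18. The median was 6 and the quartiles were 2 and 16 over the 32851 promoters of the table. The following motifs were searched on both strands of the same 250 bases. These are the SMAD palindrome GTCTAGAC, the GC-rich SMAD box GGCGCC, the FOXH1 sequences AATCCACA and AATACACA, and the TGIF sequence TGACAG, which occur in 0.167%, 9.59%, 0.718%, 0.895% and 15.9% of all promoters. None of them occurred in these 9 promoters, which says only that those letters are absent from these windows.

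In ESC + H/F-PRAMEL7WT relative to parental ESCs, 2 of the 10 genes rose, *Smad3* and *Lefty1*, and 2 fell, *Tdgf1* and *Skil*. Over all tested genes 8.71% were called higher and 16.3% lower in this comparison. In ESC + H/F-PRAMEL7ΔN relative to parental ESCs, *Smad7* and *Tgif1* rose, where 6.25% of all genes were called higher, and *Smad3*, *Lefty1* and *Lefty2* fell, where 13.6% were called lower. In the direct comparison, *Smad3*, *Lefty1* and *Lefty2* were higher in ESC + H/F-PRAMEL7WT than in ESC + H/F-PRAMEL7ΔN, with 10.9% of all genes called higher, and *Smad7*, *Tdgf1* and *Tgif1* were lower, with 9.44% called lower. *Smad3* and *Lefty1* thus had opposite directions in the derived lines relative to the same parental libraries. The comparisons with parental ESCs share those libraries, so that their values are set side by side and were not correlated. In these bulk libraries, fewer cells of a type and less RNA per cell cannot be told apart.

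As a group, the 10 genes had median log2 fold changes of 0.06 for ESC + H/F-PRAMEL7WT over parental ESCs, 0.02 for ESC + H/F-PRAMEL7ΔN over parental ESCs and -0.19 for ESC + H/F-PRAMEL7WT over ESC + H/F-PRAMEL7ΔN. The corresponding medians over all 12914 genes were -0.08, -0.06 and -0.02. The 10 genes therefore moved in both directions, with medians near those of all genes. The share of higher calls among all called genes depended on the scaling between libraries, with 34.8% as deposited and 54.8% after median-ratio scaling for ESC + H/F-PRAMEL7WT over parental ESCs, and with 31.4% and 46.8% for ESC + H/F-PRAMEL7ΔN over parental ESCs.

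**Figure D1:**
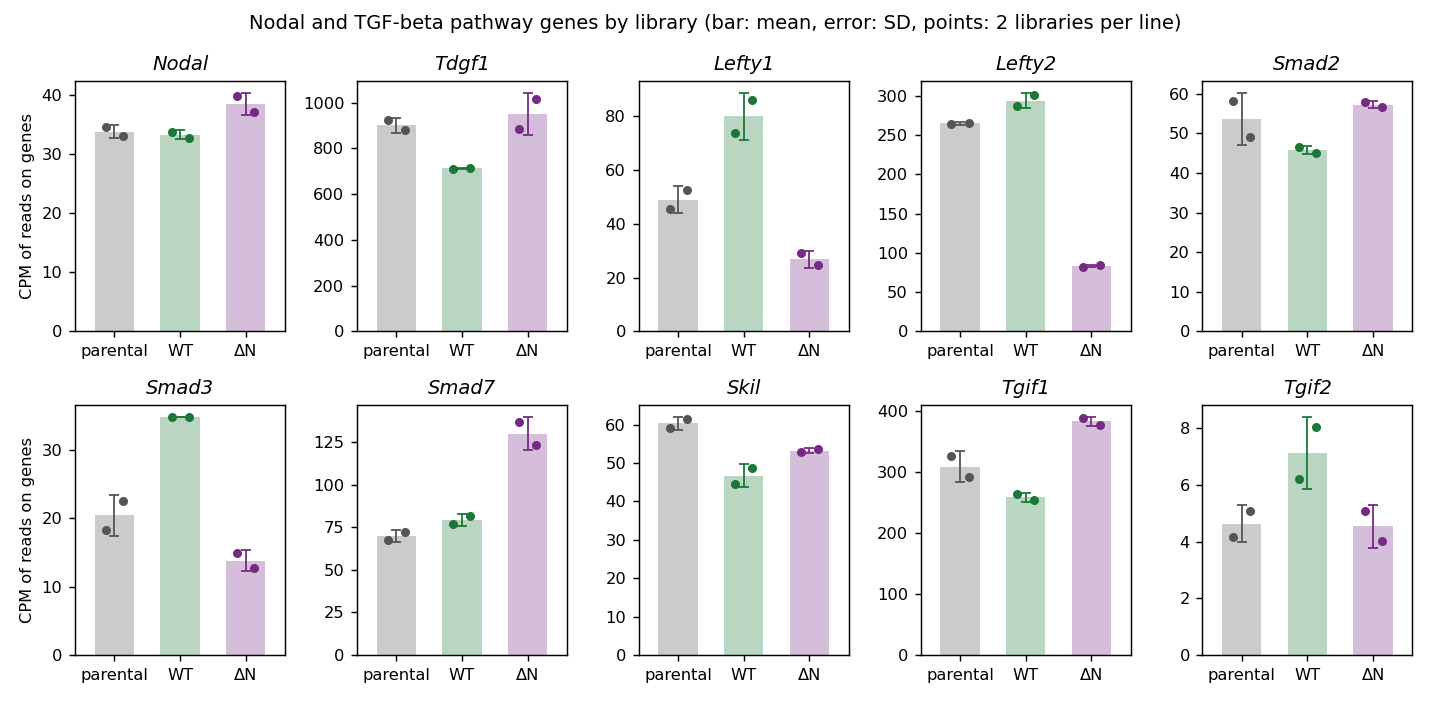
RNA level of the 10 genes in CPM of reads on genes (vertical axes, each from 0) in parental ESCs, ESC + H/F-PRAMEL7WT (WT) and ESC + H/F-PRAMEL7ΔN (ΔN), with bars for the mean, error bars for the SD and points for the 2 libraries. *Lefty2* stands at 82.0 and 84.4 CPM in ΔN against 264 to 301 CPM in the other 4 libraries, and *Smad7* at 137 and 123 CPM in ΔN against 67.5 to 81.5 CPM in the others.

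*Nodal*, which encodes the ligand and lies on chromosome 10 (61417972 to 61425338), had 34.6 and 33.0 CPM in parental ESCs, 33.8 and 32.8 CPM in ESC + H/F-PRAMEL7WT and 39.8 and 37.1 CPM in ESC + H/F-PRAMEL7ΔN. The ESC + H/F-PRAMEL7WT libraries lay within the range of the parental ones or just under it, and those of ESC + H/F-PRAMEL7ΔN lay above both. No comparison of *Nodal* passed the test. The log2 fold change was -0.02 in ESC + H/F-PRAMEL7WT (95% interval -0.25 to 0.21, limma adjusted p = 0.893) and 0.18 in ESC + H/F-PRAMEL7ΔN (95% interval -0.05 to 0.41, limma adjusted p = 0.263) relative to parental ESCs. Its sign in ESC + H/F-PRAMEL7WT turned with the scaling between libraries and reached 0.07 with median-ratio scaling.

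*Tdgf1*, the gene of the co-receptor on chromosome 9, had the highest RNA level of the 10 genes, also per length of exon. It had 923 and 879 CPM in parental ESCs, 711 and 714 CPM in ESC + H/F-PRAMEL7WT and 885 and 1016 CPM in ESC + H/F-PRAMEL7ΔN. Both ESC + H/F-PRAMEL7WT libraries lay below the other 4. The ratio of the means was 0.791 for ESC + H/F-PRAMEL7WT over parental ESCs, with a log2 fold change of -0.34 (standard error, SE, 0.09, limma adjusted p = 0.0258). Relative to ESC + H/F-PRAMEL7ΔN the log2 fold change was -0.41 (SE 0.09, limma adjusted p = 0.0131), and ESC + H/F-PRAMEL7ΔN over parental ESCs gave 0.07 (95% interval -0.13 to 0.28). The decrease in ESC + H/F-PRAMEL7WT relative to parental ESCs lost its call without either library of ESC + H/F-PRAMEL7WT, at an adjusted p = 0.157 without the first and 0.147 without the second from limma, and with median-ratio scaling, at 0.0925. Of the 100-base stretches of *Tdgf1* exons, 3.17% are shared with the pseudogene *Tdgf1-ps1*, whose own level was 31.8 to 42.3 CPM over the 6 libraries.

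*Lefty1* and *Lefty2* encode secreted inhibitors that block Nodal and its co-receptor, and they lie 41.9 kb apart on chromosome 1 (180893108 to 180899103 for *Lefty2* and 180935022 to 180938400 for *Lefty1*). *Lefty2* had 264 and 266 CPM in parental ESCs, 287 and 301 CPM in ESC + H/F-PRAMEL7WT and 82.0 and 84.4 CPM in ESC + H/F-PRAMEL7ΔN. The libraries of ESC + H/F-PRAMEL7ΔN were far below the other 4, and those of ESC + H/F-PRAMEL7WT lay slightly above the parental ones. *Lefty2* fell 3.19-fold in ESC + H/F-PRAMEL7ΔN relative to parental ESCs, a log2 fold change of -1.66 (SE 0.08, limma adjusted p = 4e-06). ESC + H/F-PRAMEL7WT over parental ESCs gave 0.15 (95% interval -0.03 to 0.33, limma adjusted p = 0.194). Between the derived lines *Lefty2* was 3.54-fold higher in ESC + H/F-PRAMEL7WT, a log2 fold change of 1.81 (SE 0.08, limma adjusted p = 1.34e-06).

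*Lefty1* had 45.4 and 52.6 CPM in parental ESCs, 73.9 and 86.2 CPM in ESC + H/F-PRAMEL7WT and 29.1 and 24.6 CPM in ESC + H/F-PRAMEL7ΔN. The 3 lines did not overlap, and parental ESCs lay between the derived lines. *Lefty1* rose 1.63-fold in ESC + H/F-PRAMEL7WT, with a log2 fold change of 0.70 (SE 0.13, limma adjusted p = 0.00557), and fell 1.82-fold in ESC + H/F-PRAMEL7ΔN, with -0.84 (SE 0.13, limma adjusted p = 0.00225). The direct comparison gave 1.54 (SE 0.13, limma adjusted p = 8.31e-05). The rise in ESC + H/F-PRAMEL7WT was not called without replicate 2 of ESC + H/F-PRAMEL7WT (0.59, limma adjusted p = 0.0741), whereas the decreases of both *Lefty* genes in ESC + H/F-PRAMEL7ΔN and their differences between the derived lines were called in all 6 fits that left out a library. The 2 genes share 97 stretches of 100 bases, which is 5.85% of those in *Lefty1* exons and 3.86% of those in *Lefty2* exons, so that reads from those stretches could have been assigned to either gene.

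*Smad2* and *Smad3* encode the receptor-regulated Smads that carry the signal of Nodal, activin and TGF-beta. *Smad3* (chromosome 9, 63646767 to 63757994), whose CpG-rich promoter is printed above, had 18.3 and 22.6 CPM in parental ESCs, 34.9 and 34.9 CPM in ESC + H/F-PRAMEL7WT and 14.9 and 12.7 CPM in ESC + H/F-PRAMEL7ΔN. As for *Lefty1*, the 3 lines did not overlap and parental ESCs lay in the middle. The log2 fold change was 0.75 in ESC + H/F-PRAMEL7WT (SE 0.14, limma adjusted p = 0.00557) and -0.53 in ESC + H/F-PRAMEL7ΔN (SE 0.14, limma adjusted p = 0.0251) relative to parental ESCs. *Smad3* was 2.53-fold higher in ESC + H/F-PRAMEL7WT than in ESC + H/F-PRAMEL7ΔN, a log2 fold change of 1.28 (SE 0.14, limma adjusted p = 0.000365). The direct difference was called in all 6 fits that left out a library. The rise in ESC + H/F-PRAMEL7WT was not called without either library of ESC + H/F-PRAMEL7WT (adjusted p = 0.0597 and 0.0595 from limma). The decrease in ESC + H/F-PRAMEL7ΔN was called in only 1 of the 6 fits that left out a library, without the first parental library, with adjusted p-values up to 0.172 from limma in the others.

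*Smad2*, on chromosome 18, had 58.3 and 49.0 CPM in parental ESCs, 46.5 and 45.0 CPM in ESC + H/F-PRAMEL7WT and 58.0 and 56.6 CPM in ESC + H/F-PRAMEL7ΔN. The parental libraries spanned those of ESC + H/F-PRAMEL7ΔN and lay above those of ESC + H/F-PRAMEL7WT. No comparison of *Smad2* was called, with log2 fold changes of -0.22 in ESC + H/F-PRAMEL7WT (95% interval -0.46 to 0.02) and 0.10 in ESC + H/F-PRAMEL7ΔN (95% interval -0.14 to 0.34) relative to parental ESCs. The direct comparison gave -0.32 (95% interval -0.56 to -0.08, limma adjusted p = 0.0628) and was called at 0.00728 when only the derived lines were fitted.

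*Smad7*, on chromosome 18, encodes an inhibitory Smad that competes at the receptors and recruits ubiquitin ligases to them. It had 67.5 and 72.3 CPM in parental ESCs, 76.9 and 81.5 CPM in ESC + H/F-PRAMEL7WT and 137 and 123 CPM in ESC + H/F-PRAMEL7ΔN. The libraries of ESC + H/F-PRAMEL7ΔN lay above all others. *Smad7* rose 1.86-fold in ESC + H/F-PRAMEL7ΔN relative to parental ESCs, with a log2 fold change of 0.88 (SE 0.09, limma adjusted p = 0.000408), and ESC + H/F-PRAMEL7WT over parental ESCs gave 0.18 (95% interval -0.03 to 0.39). ESC + H/F-PRAMEL7WT over ESC + H/F-PRAMEL7ΔN gave -0.71 (SE 0.09, limma adjusted p = 0.00114). Both called differences were called in all 6 fits that left out a library. *Lefty2* and *Smad7*, both known targets of the pathway, were called in opposite directions in ESC + H/F-PRAMEL7ΔN.

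*Skil* encodes SnoN, and *Tgif1* and *Tgif2* encode homeodomain proteins, which act in the nucleus as co-repressors of Smad complexes. *Skil*, on chromosome 3, had 59.1 and 61.6 CPM in parental ESCs, 44.6 and 48.8 CPM in ESC + H/F-PRAMEL7WT and 52.8 and 53.7 CPM in ESC + H/F-PRAMEL7ΔN. Both derived lines lay below parental ESCs, and ESC + H/F-PRAMEL7WT was the lowest. The decrease was called in ESC + H/F-PRAMEL7WT (log2 fold change -0.36, SE 0.10, limma adjusted p = 0.023) and not in ESC + H/F-PRAMEL7ΔN (-0.18, 95% interval -0.39 to 0.04), and the difference between the derived lines was -0.19 (95% interval -0.40 to 0.03, limma adjusted p = 0.191). The call in ESC + H/F-PRAMEL7WT was lost without either of its libraries, with adjusted p = 0.201 and 0.0963 from limma, and with median-ratio scaling, with 0.0669.

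*Tgif1*, on chromosome 17, had 326 and 291 CPM in parental ESCs, 263 and 253 CPM in ESC + H/F-PRAMEL7WT and 388 and 377 CPM in ESC + H/F-PRAMEL7ΔN. The 3 lines did not overlap, with the order ESC + H/F-PRAMEL7WT, parental ESCs and ESC + H/F-PRAMEL7ΔN, the reverse of that of *Lefty1* and *Smad3*. *Tgif1* was lower in ESC + H/F-PRAMEL7WT than in ESC + H/F-PRAMEL7ΔN by a log2 fold change of -0.57 (SE 0.09, limma adjusted p = 0.00218), a difference that was called in all 6 fits that left out a library. The steps from parental ESCs were smaller, at -0.26 in ESC + H/F-PRAMEL7WT (95% interval -0.45 to -0.06, limma adjusted p = 0.0554) and 0.31 in ESC + H/F-PRAMEL7ΔN (SE 0.09, limma adjusted p = 0.0329). The rise in ESC + H/F-PRAMEL7ΔN was called in only 1 of 6 fits that left out a library, without the first parental library, and the adjusted p from limma reached 0.187 in the others.

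*Tgif2*, on chromosome 2, was the least abundant of the 10 genes, from 76 to 145 reads per library. It had 4.18 and 5.1 CPM in parental ESCs, 6.23 and 8.04 CPM in ESC + H/F-PRAMEL7WT and 5.07 and 4.01 CPM in ESC + H/F-PRAMEL7ΔN. The libraries of ESC + H/F-PRAMEL7WT lay above the other 4, but the log2 fold changes of 0.52 over parental ESCs (95% interval 0.11 to 0.93, limma adjusted p = 0.0622) and 0.55 over ESC + H/F-PRAMEL7ΔN (95% interval 0.14 to 0.96, limma adjusted p = 0.0612) were not called. With median-ratio scaling the adjusted p was 0.035 and 0.0497. Of the 100-base stretches of *Tgif2*, 62.2% also occur in *5430405H02Rik* and *Gm37790*, which overlap it on the opposite strand, or in *Tgif2-ps2*. The written account of the library preparation names no step that marks strand, and strandedness was not tested. Reads of these genes may therefore not be told apart, although the overlapping genes had only 0.255 to 0.875 CPM on average in any line.

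**Figure D2:**
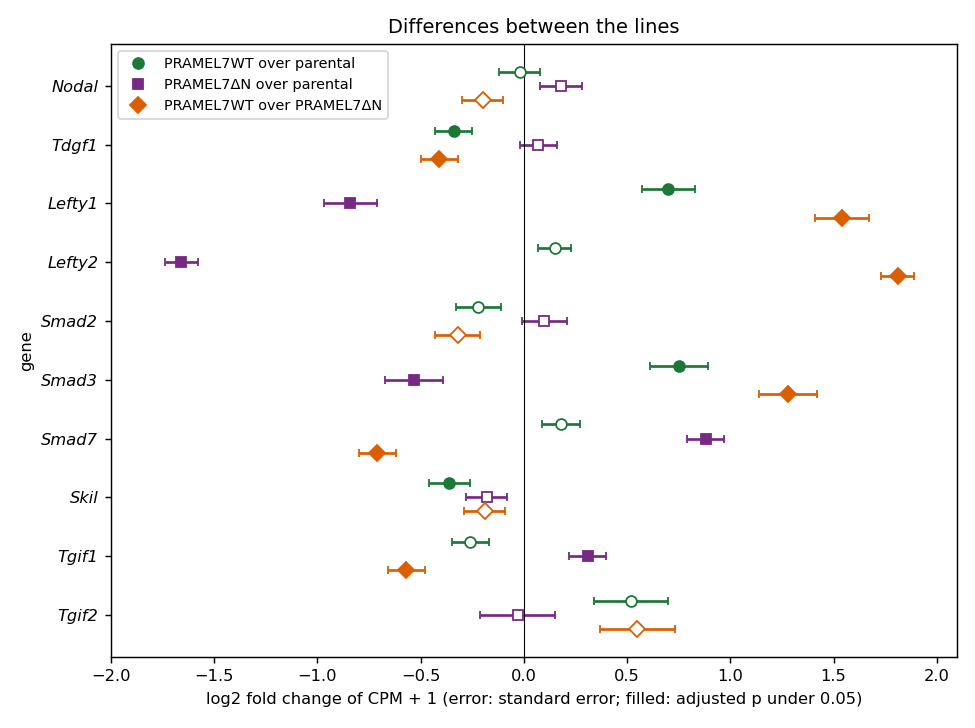
Log2 fold change of CPM + 1 (horizontal axis) for the 10 genes in the 3 comparisons, with standard errors as error bars and filled symbols for an adjusted p under 0.05 from limma. *Lefty1* and *Smad3* have filled symbols on opposite sides of 0 for the derived lines, and *Lefty2* reaches -1.66 in ΔN and 1.81 in the direct comparison.

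Levels between genes were compared only per length of exon. In parental ESCs the order was *Tdgf1* with 352 and 335 CPM per kb, *Lefty2* with 101 and 102, *Tgif1* with 58.0 and 51.7, and *Lefty1* with 25.8 and 29.9. *Nodal* with 16.5 and 15.8 CPM per kb and *Smad7* with 14.9 and 16.0 overlapped and had no order. *Smad2* and *Skil* followed with 5.58 to 6.63 CPM per kb and likewise overlapped, then *Smad3* with 3.30 and 4.07 and *Tgif2* with 1.09 and 1.33. In ESC + H/F-PRAMEL7ΔN, *Lefty2* with 31.4 and 32.3 CPM per kb fell below *Tgif1* with 69.0 and 67.0, and *Lefty1* with 16.6 and 14.0 fell below *Nodal* with 19.0 and 17.7. In ESC + H/F-PRAMEL7WT, *Smad3* with 6.30 CPM per kb in each library was above *Smad2* with 5.29 and 5.12.

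Ratios of paralogs within a library do not depend on the scaling between libraries. *Smad2* over *Smad3*, per length of exon, was 2.01 and 1.37 for parental ESCs, 0.84 and 0.813 for ESC + H/F-PRAMEL7WT and 2.45 and 2.81 for ESC + H/F-PRAMEL7ΔN. The 3 lines did not overlap, and *Smad2* was the more abundant except in ESC + H/F-PRAMEL7WT. *Lefty2* over *Lefty1* was 3.92 and 3.41 for parental ESCs, 2.62 and 2.35 for ESC + H/F-PRAMEL7WT and 1.9 and 2.31 for ESC + H/F-PRAMEL7ΔN. Both derived lines were below parental ESCs and close to each other, through a higher *Lefty1* in ESC + H/F-PRAMEL7WT and a lower *Lefty2* in ESC + H/F-PRAMEL7ΔN. *Tgif1* over *Tgif2* was 53.2 and 38.9 for parental ESCs, 28.8 and 21.4 for ESC + H/F-PRAMEL7WT and 52.1 and 64.0 for ESC + H/F-PRAMEL7ΔN, with ESC + H/F-PRAMEL7WT below the other lines. These ratios were not tested.

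**Figure D3:**
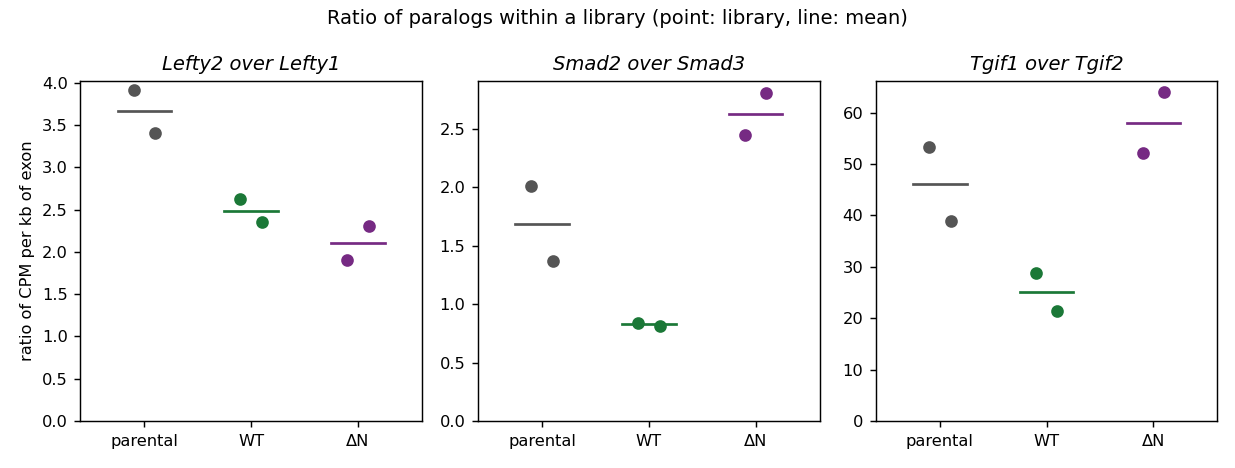
Ratio of paralogs within each library (vertical axes, CPM per kb of exon over CPM per kb of exon, from 0) for *Lefty2* over *Lefty1*, *Smad2* over *Smad3* and *Tgif1* over *Tgif2*, with points for libraries and lines for means. *Smad2* over *Smad3* lies at 0.84 and 0.813 in WT and at 2.45 and 2.81 in ΔN.

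The rest of the pathway was read from a list of 45 further genes, of which 44 were in the table and 33 passed the filter and were tested. Relative to parental ESCs, 8 of the 33 rose and 4 fell in ESC + H/F-PRAMEL7WT, where 8.71% of all tested genes were called higher and 16.3% lower. In ESC + H/F-PRAMEL7ΔN, 7 of the 33 rose and 5 fell, against 6.25% and 13.6% of all tested genes. Between the derived lines, 5 had more RNA in ESC + H/F-PRAMEL7WT and 2 less, against 10.9% and 9.44%. The median log2 fold changes of the 33 genes were 0.11, -0.13 and 0.05 in these comparisons, beside -0.08, -0.06 and -0.02 over all tested genes. Among the 5 tested ligand genes, *Inhbb*, a subunit of activin B, rose from 47.6 and 45.9 CPM in parental ESCs to 103 and 106 CPM in ESC + H/F-PRAMEL7WT and 123 and 117 CPM in ESC + H/F-PRAMEL7ΔN. Its log2 fold changes were 1.15 (limma adjusted p = 0.000192) and 1.34 (limma adjusted p = 2.2e-05). *Inha*, the inhibin alpha subunit, had 0.206 and 0.325 CPM in parental ESCs and 0.962 and 2.2 CPM in ESC + H/F-PRAMEL7WT. Its log2 fold change of 0.99 (limma adjusted p = 0.019) lost its call without replicate 2 of ESC + H/F-PRAMEL7WT, at 0.63. *Inha* passed the filter only through libraries of the derived lines, with 2.2 CPM in ESC + H/F-PRAMEL7WT and 1.31 CPM in ESC + H/F-PRAMEL7ΔN. The filter itself therefore favoured a rise of *Inha*, which is among the 8 genes counted above. *Gdf3*, a ligand related to Nodal, had 127 and 92.9 CPM in parental ESCs, 131 and 125 CPM in ESC + H/F-PRAMEL7WT and 158 and 157 CPM in ESC + H/F-PRAMEL7ΔN. It rose in ESC + H/F-PRAMEL7ΔN (log2 fold change 0.53, limma adjusted p = 0.0203), and the value was 0.31 without the second parental library and lost its call without either library of ESC + H/F-PRAMEL7ΔN, at 0.119 and 0.11 from limma. *Gdf3* lies on chromosome 6, and 0.28 remained after the median of that chromosome, 0.25, was subtracted. Of the 5 tested ligand genes, *Inhbb* thus rose in both derived lines and *Gdf3* in ESC + H/F-PRAMEL7ΔN. The call of *Inha* in ESC + H/F-PRAMEL7WT is set apart because of the filter. *Gdf1* and *Inhba* were listed at 0 in all 6 libraries.

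Both convertase genes, whose products cleave the precursors of Nodal and its relatives, rose in ESC + H/F-PRAMEL7WT. Over all tested genes 8.71% were called higher there relative to parental ESCs. *Pcsk6* had 57.6 and 61.8 CPM in parental ESCs, 91.7 and 94.8 CPM in ESC + H/F-PRAMEL7WT and 92.1 and 88.8 CPM in ESC + H/F-PRAMEL7ΔN, with log2 fold changes of 0.64 (limma adjusted p = 0.00192) and 0.59 (limma adjusted p = 0.00219). *Furin* had 15.7 and 23.7 CPM in parental ESCs, 41.8 and 47.5 CPM in ESC + H/F-PRAMEL7WT and 24.2 and 22.5 CPM in ESC + H/F-PRAMEL7ΔN. Its log2 fold change was 1.16 in ESC + H/F-PRAMEL7WT (limma adjusted p = 0.00239) and 0.26 in ESC + H/F-PRAMEL7ΔN (limma adjusted p = 0.331). The difference of 0.90 between the derived lines (limma adjusted p = 0.00643) was lost without replicate 2 of either line, with p up to 0.0801 from limma. Between the derived lines *Pcsk6* and *Inhbb* gave 0.04 (SE 0.09) and -0.19 (SE 0.09) and were not called.

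Of the 6 tested receptor genes, 1 was called in ESC + H/F-PRAMEL7WT and 2 in ESC + H/F-PRAMEL7ΔN, relative to parental ESCs. Over all tested genes, 8.71% were called higher and 16.3% lower in ESC + H/F-PRAMEL7WT, and 6.25% and 13.6% in ESC + H/F-PRAMEL7ΔN. *Acvr2a*, a type II receptor, fell from 11.1 and 9.82 CPM in parental ESCs to 7.85 and 6.83 CPM in ESC + H/F-PRAMEL7WT (-0.46 on the log2 scale, limma adjusted p = 0.0478). The call held in only 1 of 6 fits that left out a library, without the second parental library, with p up to 0.268 from limma in the others. *Tgfbr2*, the type II receptor of TGF-beta itself, rose in ESC + H/F-PRAMEL7ΔN from 7.79 and 8.41 CPM to 13.0 and 12.8 CPM (log2 fold change 0.61, limma adjusted p = 0.0181), a call lost without either library of ESC + H/F-PRAMEL7ΔN, at 0.114 and 0.0959 from limma. *Tgfbr1*, the type I receptor of TGF-beta, had 30.3 and 27.7 CPM in parental ESCs, 23.7 CPM in each library of ESC + H/F-PRAMEL7WT and 20.9 and 21.4 CPM in ESC + H/F-PRAMEL7ΔN. Its decrease in ESC + H/F-PRAMEL7ΔN (-0.43 on the log2 scale, limma adjusted p = 0.0232) was lost without each of the 4 libraries of the derived lines, with p up to 0.138 from limma, and with median-ratio scaling, at 0.0528. *Acvr1b*, the type I receptor for Nodal and activin, ranged from 53.5 to 74.4 CPM and *Acvr2b* from 21.4 to 33.0 CPM over the 6 libraries, and neither was called in any comparison. *Acvr1c* was listed at 0 throughout, and *Cfc1*, the other co-receptor gene, did not exceed 0.354 CPM.

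*Smad4*, the common partner of the receptor-regulated Smads, had 70.8 to 78.7 CPM over the 6 libraries and 95% intervals of its log2 fold change within -0.21 and 0.24 in all 3 comparisons. *Foxh1*, the DNA-binding partner for Nodal targets, had 49.2 and 50.2 CPM in parental ESCs, 54.4 and 53.6 CPM in ESC + H/F-PRAMEL7WT and 41.3 and 35.1 CPM in ESC + H/F-PRAMEL7ΔN. It was higher in ESC + H/F-PRAMEL7WT than in ESC + H/F-PRAMEL7ΔN by 0.49 (SE 0.11, limma adjusted p = 0.0118), which was not called without either library of ESC + H/F-PRAMEL7WT or without replicate 2 of ESC + H/F-PRAMEL7ΔN, with p up to 0.129 from limma. Its decrease in ESC + H/F-PRAMEL7ΔN relative to parental ESCs (-0.38, limma adjusted p = 0.0354) was lost without each of the 4 libraries of the derived lines, with p up to 0.247 from limma, and with median-ratio scaling, at 0.0878.

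Among 7 tested genes of inhibitory Smads and turnover, *Smad6*, a relative of *Smad7*, rose in ESC + H/F-PRAMEL7WT from a low level, from 1.19 and 2.55 CPM to 5.52 and 6.06 CPM, with 1.0 and 1.27 CPM in ESC + H/F-PRAMEL7ΔN. Its log2 fold change was 1.28 over parental ESCs (limma adjusted p = 0.00529, and 0.055 without replicate 2 of ESC + H/F-PRAMEL7WT) and 1.67 over ESC + H/F-PRAMEL7ΔN (limma adjusted p = 0.00133). The inhibitory Smads thus differed between the derived lines in opposite directions, *Smad6* higher and *Smad7* lower in ESC + H/F-PRAMEL7WT. *Pmepa1*, a membrane protein that sequesters receptor-regulated Smads, rose in both lines, from 14.5 and 14.9 CPM to 23.0 and 29.1 CPM in ESC + H/F-PRAMEL7WT and 24.1 and 21.4 CPM in ESC + H/F-PRAMEL7ΔN. Its adjusted p-values of 0.00527 and 0.0163 from limma went to 0.0701 without replicate 2 of ESC + H/F-PRAMEL7WT and to 0.138 and 0.0605 without a library of ESC + H/F-PRAMEL7ΔN. *Ldlrad4*, a related inhibitor, had 1.23 and 0.959 CPM in parental ESCs, 2.16 and 2.81 CPM in ESC + H/F-PRAMEL7WT and 1.2 and 1.15 CPM in ESC + H/F-PRAMEL7ΔN, with log2 fold changes of 0.73 over parental ESCs (limma adjusted p = 0.0192) and 0.67 over ESC + H/F-PRAMEL7ΔN (limma adjusted p = 0.0301), both lost without either library of ESC + H/F-PRAMEL7WT and the second also without either of ESC + H/F-PRAMEL7ΔN, with p up to 0.152 and 0.218 from limma.

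*Smurf2*, a ubiquitin ligase that acts on Smads and receptors, had 53.1 and 52.0 CPM in parental ESCs, 40.1 and 34.9 CPM in ESC + H/F-PRAMEL7WT and 38.9 and 42.8 CPM in ESC + H/F-PRAMEL7ΔN. It was called lower in both lines, with log2 fold changes of -0.48 (limma adjusted p = 0.0129, and 0.0558 and 0.141 without a library of ESC + H/F-PRAMEL7WT) and -0.36 (limma adjusted p = 0.0458, and up to 0.264 without a library of the derived lines). The 1102 tested genes of its chromosome, 11, had medians of -0.36 and -0.33 in the same comparisons, so that -0.12 and -0.03 remained after subtraction. *Trim33*, a ubiquitin ligase that also acts on Smad complexes, had 86.3 and 82.4 CPM in parental ESCs, 65.3 and 69.0 CPM in ESC + H/F-PRAMEL7WT and 72.4 and 77.8 CPM in ESC + H/F-PRAMEL7ΔN. Its decrease in ESC + H/F-PRAMEL7WT (-0.32 on the log2 scale, limma adjusted p = 0.0299) was lost without each of the 4 libraries of the derived lines, with p up to 0.215 from limma, and with median-ratio scaling, at 0.0998. *Ski*, which encodes a co-repressor related to the product of *Skil*, had 71.9 and 79.0 CPM in parental ESCs, 95.8 and 99.9 CPM in ESC + H/F-PRAMEL7WT and 85.7 and 89.7 CPM in ESC + H/F-PRAMEL7ΔN. It rose in ESC + H/F-PRAMEL7WT (log2 fold change 0.37, limma adjusted p = 0.0177, and 0.109 and 0.152 without a library of ESC + H/F-PRAMEL7WT), whereas *Skil* fell there.

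Of 10 genes listed as downstream targets outside the feedback loop, 9 were in the table and 5 were tested. *Eomes*, a mesendoderm and trophoblast regulator, had 4.9 and 4.28 CPM in parental ESCs, 4.45 and 5.95 CPM in ESC + H/F-PRAMEL7WT and 9.13 and 10.6 CPM in ESC + H/F-PRAMEL7ΔN. Its rise in ESC + H/F-PRAMEL7ΔN (log2 fold change 0.96, limma adjusted p = 0.00513) lost its call without replicate 2 of ESC + H/F-PRAMEL7ΔN. The sum of 6 mesendoderm markers, which include *Eomes*, was 10 to 11.4 CPM there against 4.91 to 6.99 CPM in the other lines. *Eomes* made up most of that sum, which therefore says nothing beyond the rise of *Eomes* itself. Of those 6 markers only *Eomes* passed the filter. The difference of *Eomes* between the derived lines (-0.82, limma adjusted p = 0.0108) was lost without replicate 1 of ESC + H/F-PRAMEL7WT or replicate 2 of ESC + H/F-PRAMEL7ΔN, at 0.116 and 0.112 from limma.

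*Bhlhe40* rose in ESC + H/F-PRAMEL7ΔN from 23.2 and 35.1 CPM to 47.6 and 49.9 CPM (log2 fold change 0.75, limma adjusted p = 0.0127, and 0.0795 and 0.093 without a library of ESC + H/F-PRAMEL7ΔN), and the value was 0.46 without the first parental library. It lies on chromosome 6, whose 603 tested genes had a median log2 fold change of 0.25 in this comparison, and 0.50 remained after that median was subtracted. *T* and *Gsc* stayed under 0.5 CPM in all 6 libraries.

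**Figure D4:**
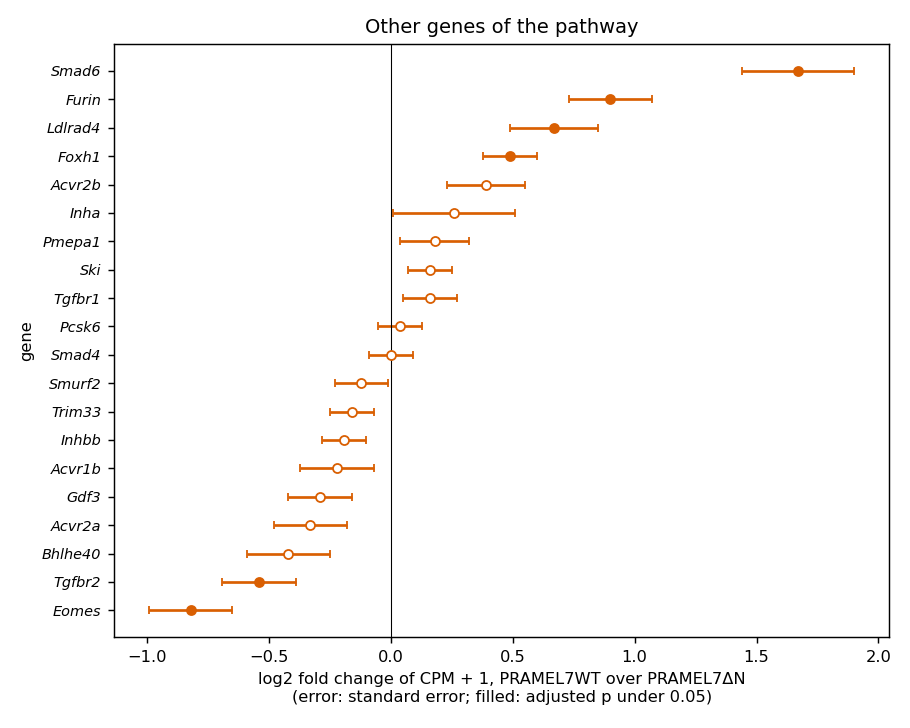
Log2 fold change of CPM + 1 for ESC + H/F-PRAMEL7WT over ESC + H/F-PRAMEL7ΔN (horizontal axis) of the 20 further pathway genes whose levels are given in the text, with standard errors as error bars and filled symbols for an adjusted p under 0.05 from limma. *Smad6* stands highest at 1.67 and *Eomes* lowest at -0.82, and 6 symbols are filled.

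Genes around the *Lefty* locus and around *Smad3* were read to see whether neighbours moved with them. Within 500 kb of the start of *Lefty2*, 15 genes were tested, with a median log2 fold change of 0.06 in ESC + H/F-PRAMEL7ΔN over parental ESCs, and the only called one was *Lefty1*. The decrease there was thus seen for the *Lefty* pair, at -1.66 and -0.84. In ESC + H/F-PRAMEL7WT, 4 of the 15 were called and all were higher. Among them were *Lefty1* at 0.70, *H3f3a* at 0.52 and *Tmem63a* at 0.43, whereas *Lefty2* itself gave 0.15. Of 9 tested genes within 500 kb of *Smad3*, *Smad6*, whose start lies 264.1 kb away, was the only called one in ESC + H/F-PRAMEL7WT. The median of the 9 was -0.01. In ESC + H/F-PRAMEL7ΔN, *Map2k1* was called higher (0.34) and *Lctl* lower (-0.69) among these 9. Over all tested genes, 8.71% were called higher and 16.3% lower in ESC + H/F-PRAMEL7WT, and 6.25% and 13.6% in ESC + H/F-PRAMEL7ΔN. The names of these neighbours were chosen after their values were seen.

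*Skil* lay among genes with lower values in ESC + H/F-PRAMEL7WT, where 8 tested neighbours had a median log2 fold change of -0.33 and 2 were called lower. Over all tested genes 16.3% were called lower in ESC + H/F-PRAMEL7WT relative to parental ESCs. The median of chromosome 3 in that comparison was -0.105, and *Skil* had -0.26 after it was subtracted. For the chromosomes of the 10 genes the medians lay between -0.105 and 0.04 in all 3 comparisons.

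**Figure D5:**
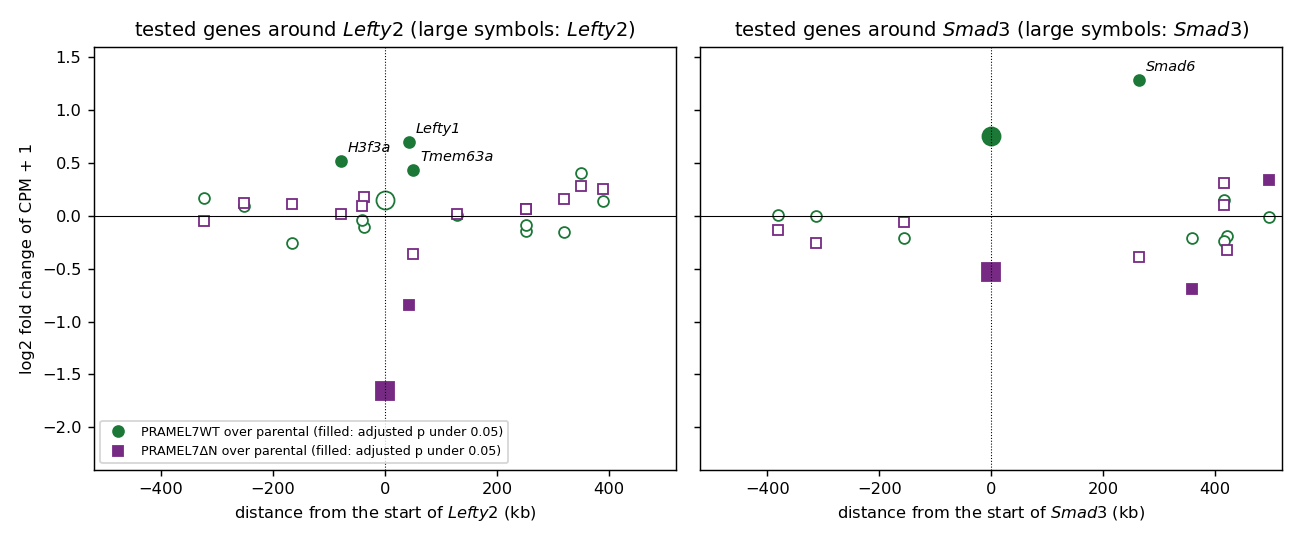
Log2 fold change of CPM + 1 (vertical axis) of 14 of the 15 tested genes within 500 kb of *Lefty2*, with 1 gene not shown, and of all 9 within 500 kb of *Smad3*, against distance from the start of *Lefty2* (left) and *Smad3* (right) in kb, for both derived lines over parental ESCs, with filled symbols for an adjusted p under 0.05 from limma and large symbols for *Lefty2* and *Smad3* themselves. In ΔN only the *Lefty* pair is filled at the left, and *Smad6* at 264.1 kb stands at 1.28 in WT at the right.

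Among 8560 tested genes with at least 10 CPM on average, those most like *Lefty2* over the 6 libraries by Pearson correlation of log2(CPM + 1) were *Stmn2* (r = 0.9995), *Tdrd12* (r = 0.999) and *Raver2* (r = 0.9986). *Stmn2* had 379 and 378 CPM in parental ESCs, 390 and 406 CPM in ESC + H/F-PRAMEL7WT and 236 and 238 CPM in ESC + H/F-PRAMEL7ΔN. Those most like *Lefty1* were *Rcor2* (r = 0.9965), *Slc9a3r2* (r = 0.9961) and *Steap3* (r = 0.9956). *Rcor2* had 165 and 183 CPM in parental ESCs, 231 and 241 CPM in ESC + H/F-PRAMEL7WT and 121 and 116 CPM in ESC + H/F-PRAMEL7ΔN. With 3 lines of 2 libraries each, these correlations describe an order of line means, and each is the highest of many.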

How the data were processed

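RNA of 6 libraries was measured as RPKM. From single-end reads, the authors took out ribosomal sequence (SortMeRNA), clipped adapters (Trimmomatic), aligned to mm10 (STAR) and deposited RPKM per gene from exon coverage in a custom pipeline. The submitters' processing notes also name Bowtie2 2.3.4.3, Subread 1.4.6-p4 and deepTools 3.2.1. The authors' own fold changes and p-values were not used, and 6 ChIP and input samples were not analysed here.

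With the whole gene span as length, 98.26 to 98.46% of RPKM values up to 20 reads lay within 0.1 of whole reads, against 40.35 to 41.99% with exon length. RPKM was multiplied by the span in GENCODE vM21 (GRCm38) and by a single constant, which gives CPM and keeps the authors' scaling. Of 50978 genes, 176 had a repeated name or a date as name, 2796 had no match and 66 several, which left 47940. A gene needed over 1 CPM in 2 or more libraries, which 12914 did. These entered limma 3.58.1 (R 4.3.3, trend on, Benjamini-Hochberg adjustment) as log2(CPM + 1). Because the deposited unit is normalized, no count test was the main one, and limma-voom on the recovered reads was an alternative. Each fit was repeated with only the compared lines, with the replicate number as a block, after median-ratio, upper-quartile and quantile scaling, with 0.1 or 5 added before the logarithm, with the CPM filter dropped or set to 10, without the trend, with RPKM left unconverted, with an unadjusted p and a fold limit, with chromosome medians subtracted and without each library in turn. Intervals are at 95%. The tests were checked on simulated data. Other tools were python 3.11.15, pandas 2.3.3, numpy 2.4.6 and matplotlib 3.10.9.

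The 10 genes, the list of 45 further pathway genes and the markers were chosen with earlier results of these data known. Of the further genes, the text names the 12 called ones with the largest change in any comparison, and *Foxh1*, *Smad4*, *Acvr1b*, *Acvr2a* and *Acvr2b*, and results of a few genes are not reported here. The genes most like *Lefty1* and *Lefty2* were chosen because those 2 had the largest range of line means. Genes at a count of 5 or fewer, listed at 0 or near the 10 genes were named after their values were seen.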

Additional observations from a re-analysis of the deposited data

How the results depend on the processing

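Across the alternatives with a p, the calls of *Lefty1*, *Lefty2* and *Smad7* in ESC + H/F-PRAMEL7ΔN and of *Lefty1*, *Lefty2*, *Smad3*, *Smad7* and *Tgif1* between the derived lines were kept under all of them, while none of the 4 calls in ESC + H/F-PRAMEL7WT over parental ESCs was. With limits of an unadjusted p under 0.05 and an absolute log2 fold change above 0.58, *Tgif1* between the derived lines missed the fold limit. With 2 libraries per line, leaving out 1 leaves a lone library that is assumed to vary like the other lines, and low-level genes such as *Tgif2* and *Inha* rest on few reads. Their log2 fold changes depend on the pseudocount, and with 0.1 and 5 in place of 1 that of *Inha* in ESC + H/F-PRAMEL7WT went from 0.99 to 2.12 and 0.32.

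Numbers of called genes, from limma, that moved by over 1.5 times were as follows. Of the 10 genes, the 2 lower in ESC + H/F-PRAMEL7WT over parental ESCs became 1 with no filter and without the trend, and 0 with median-ratio scaling, upper-quartile scaling, the unadjusted p with the fold limit, and RPKM without conversion, which also left 1 of the 2 higher. Of the 2 higher in ESC + H/F-PRAMEL7ΔN, 1 remained called with no filter, with only the compared lines, without the trend and with the unadjusted p, and 0 with RPKM. Of the 3 lower in ESC + H/F-PRAMEL7WT than in ESC + H/F-PRAMEL7ΔN, the unadjusted p and RPKM gave 1 each. Of the further pathway genes in ESC + H/F-PRAMEL7WT over parental ESCs, the 8 higher became 5 with a filter of 10 CPM and 1 with RPKM. The 4 lower became 1 with no filter, with only the compared lines and with median-ratio and upper-quartile scaling, 2 with the replicate block and quantile normalization, and 0 with the unadjusted p and RPKM. In ESC + H/F-PRAMEL7ΔN, the 7 higher became 3 with no filter and 2 with RPKM, and the 5 lower became 2 with no filter, only the compared lines, median-ratio and upper-quartile scaling and the unadjusted p, 3 with the replicate block and without the trend, 1 with quantile normalization and 0 with RPKM. Between the derived lines, the 5 higher became 3 with a filter of 10 CPM and 1 with RPKM, and the 2 lower became 0 with no filter and RPKM, 1 with a filter of 10 CPM and the unadjusted p, and 4 with only the compared lines. RPKM without conversion tested only 2347 genes, which left out *Smad3*, *Smad7*, *Skil* and other listed genes. With the filter of 10 CPM, *Inha*, *Smad6*, *Ldlrad4* and *Eomes* were not tested, so that their calls dropped out of the counts without a test.

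Over the fits that left out a library, the 10 genes gave 0 to 3 higher and 0 to 4 lower in ESC + H/F-PRAMEL7WT, and 1 to 2 higher in ESC + H/F-PRAMEL7ΔN. The further genes gave 3 to 10 higher and 0 to 5 lower in ESC + H/F-PRAMEL7WT, 2 to 12 and 1 to 7 in ESC + H/F-PRAMEL7ΔN, and 1 to 7 and 0 to 4 between the derived lines. Apart from genes that dropped out of the tests, the causes of these moves were not tested.

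The sign turned for 4 differences that were not called. *Nodal* in ESC + H/F-PRAMEL7WT over parental ESCs was 0.07378 with median-ratio, 0.05099 with upper-quartile and 0.0422 with quantile scaling, and -0.0552 to 0.0109 without a library. *Tgif2* in ESC + H/F-PRAMEL7ΔN was 0.0418, 0.03957 and 0.1503 with the same scalings and -0.165 to 0.111 without a library. *Tdgf1* in ESC + H/F-PRAMEL7ΔN was -0.01217 with quantile normalization and -0.0258 to 0.173 without a library, and *Smad2* in ESC + H/F-PRAMEL7ΔN was -0.0235 to 0.221 without a library.

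The differences between replicates 1 and 2 correlated across genes with r = 0.3 for parental ESCs and ESC + H/F-PRAMEL7WT. The values were -0.344 for parental ESCs and ESC + H/F-PRAMEL7ΔN and -0.132 for the derived lines. The replicate numbers as labelled thus did not run in the same order in all 3 lines. Whether the libraries were made in pairs was not tested. With the replicate number as a block, 955 genes were called higher and 1774 lower in ESC + H/F-PRAMEL7WT over parental ESCs, against 1125 and 2109 without it, and the calls of the 10 genes numbered the same as without it in every comparison. With the numbers of ESC + H/F-PRAMEL7ΔN crossed in that block, an alternative chosen after seeing the data, 1616 and 2819 genes were called, and among the 10 genes 3 higher and 3 lower.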
